A study of Mus musculus with 32 samples.

Results

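Bile acid and anion transporters of the liver were followed here as a set of 10 genes, taken by symbol from a count table of 55421 genes. They comprised 4 uptake carriers (Slc10a1, Slco1b2, Slco1a4, Slco2b1), 2 pumps that export into bile (Abcb11, Abcc2) and 4 carriers that export back to blood (Abcc3, Abcc4, Slc51a, Slc51b). Of these, 7 had counts in both input and IP libraries of every group, Abcc4 had counts in 16 of 32 libraries, Slc51b in 7 and Slc51a in none. The livers came from 16 mice in 4 groups of 4: hepatectomy with Mettl14 KO (aged 72 to 73 days), hepatectomy with Flox control (72 to 73 days), Sham control surgery with Mettl14 KO (72 to 73 days) and Sham control surgery with Flox control (71 to 77 days). The sources used here name no Cre driver for the KO. From each liver came an input library, prepared with a stranded mRNA kit, and an IP library, for which RNA fragments were captured by their m6A with an antibody and carried through a different kit. N6-methyladenosine (m6A) is a mark on mRNA that METTL14 writes together with METTL3. An IP level therefore moves with the amount of a transcript as well as with its methylation.

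Hepatocytes take bile acids up from sinusoidal blood and pump them across the canalicular membrane into bile, which keeps them cycling between gut and liver. Slc10a1 (NTCP) carries conjugated bile acids in with sodium, and the Slco carriers take up unconjugated bile acids, bilirubin, hormones and drugs without sodium. Abcb11 (BSEP) is the bile salt pump of the canaliculus and Abcc2 (MRP2) exports conjugated bilirubin and glutathione conjugates. Abcc3 (MRP3), Abcc4 (MRP4) and the paired subunits Slc51a and Slc51b (OSTα and OSTβ) send bile acids and conjugates back to blood, a route known to be used when bile acids build up in hepatocytes.

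The upstream bases of 4 genes are shown: the 3 uptake carriers that were lower in KO livers after hepatectomy in IP, and Slc51b, which was detected there in KO livers alone. Each line gives the 250 bases before the RefSeq start on GRCm38.p6, 5′ to 3′ on the strand of the gene, for Slco1b2 chr6:141629268-141629517 (plus strand), Slc10a1 chr12:80968706-80968955 (minus strand), Slco2b1 chr7:99711341-99711590 (minus strand) and Slc51b chr9:65422774-65423023 (minus strand). Capitals mark AGGTCA, the hexamer that nuclear receptors bind, on either strand (TGACCT when read in reverse), and GTTAAT, the core of an HNF1 site.
Slco1b2: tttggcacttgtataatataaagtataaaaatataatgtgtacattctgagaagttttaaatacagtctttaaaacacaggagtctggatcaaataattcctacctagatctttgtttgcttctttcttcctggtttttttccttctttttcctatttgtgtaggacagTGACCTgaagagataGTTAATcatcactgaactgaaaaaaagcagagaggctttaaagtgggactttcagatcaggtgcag
Slc10a1: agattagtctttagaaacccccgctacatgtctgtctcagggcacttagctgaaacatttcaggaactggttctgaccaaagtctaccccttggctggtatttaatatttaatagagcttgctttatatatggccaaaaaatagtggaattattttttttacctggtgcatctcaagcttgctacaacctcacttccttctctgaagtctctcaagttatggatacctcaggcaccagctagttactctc
Slco2b1: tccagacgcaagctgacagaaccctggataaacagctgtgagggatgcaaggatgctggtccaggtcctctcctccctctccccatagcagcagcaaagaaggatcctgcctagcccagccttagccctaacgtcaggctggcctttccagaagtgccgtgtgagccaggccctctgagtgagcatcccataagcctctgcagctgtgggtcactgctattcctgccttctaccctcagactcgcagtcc
Slc51b: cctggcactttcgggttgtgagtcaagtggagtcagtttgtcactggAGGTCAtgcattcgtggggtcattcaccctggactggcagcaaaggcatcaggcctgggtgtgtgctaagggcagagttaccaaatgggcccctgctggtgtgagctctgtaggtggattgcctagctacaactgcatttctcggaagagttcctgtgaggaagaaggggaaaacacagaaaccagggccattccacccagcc
AGGTCA was found in 5 of the 9 transporters with a listed upstream window (Slco1b2, Abcb11, Abcc2, Slc51a and Slc51b), against 14% of all 32851 windows of the same length. In Slco1b2 it lay in reverse at positions -81 to -76, counted back from the base before the start, and in Slc51b on the gene's strand at -203 to -198. GTTAAT was found in Slco1b2 alone, at -66 to -61, against 6.43% of all windows, and overlapped no other match. The inverted repeat of this hexamer with 1 base between its arms, the consensus of the bile acid receptor, was found in 0 of the 9 and in 0.00609% of all windows. For Slc51b the RefSeq start lay 182 bases from the end of the gene in the count table, inside the counted span, while the starts of Slco1b2, Slc10a1 and Slco2b1 differed from it by 0 bases.

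Library totals ran from 7133726 to 24297713 counts in IP and from 8177746 to 12533871 in input. An IP library held 6676 to 16846 genes with at least 10 counts and an input library 4176 to 9354. Of the IP libraries, that of hepatectomy KO replicate 4 was the smallest in total. Mettl14 itself had 60, 64, 90 and 210 counts summed over the IP libraries of the hepatectomy KO, hepatectomy flox, sham KO and sham flox groups and 0 counts in 16 of 16 inputs, so its level could not check the genotype labels at this depth. All 8 hepatocyte markers had counts in each group.

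In the input libraries, which measure the transcripts themselves, Slco1b2 and Slc10a1 were the most abundant of the set per length, while the other uptake carriers, Slco2b1 and Slco1a4, averaged below Abcc3, Abcb11 and Abcc2. In sham flox livers Slco1b2 averaged 199 ± 68.7 CPM per kb of exon (CPM is the count scaled to a common library total, here divided by exon length) and Slc10a1 139 ± 80.8 (SD, n = 4 each, as for the values that follow). Abcc3 followed at 41.7 ± 15.98, Abcb11 at 38.8 ± 33.9, Abcc2 at 27.3 ± 16.04 and Slco2b1 at 23.6 ± 20.2 CPM per kb. Slco1a4 was lower at 7.14 ± 10.2 CPM per kb. The ranges of neighbours in this order overlapped except between Slc10a1, with 66.3 to 248 CPM per kb, and Abcc3, with 18.8 to 54.7.

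The other export carriers were undetected in most inputs, and Abcc4 was uneven. Abcc4 had 32.1, 58.3, 0 and 0 CPM in hepatectomy KO inputs, against 0 in 4 of 4 hepatectomy flox inputs. It had 0, 0, 0.0981 and 73.98 CPM in sham KO inputs, against 0 in 4 of 4 sham flox inputs. A count of 0 allows up to 0.239 to 0.367 CPM in an input library and 0.123 to 0.421 in an IP library (3 counts of the total, counting error only). Slc51b had 0 counts in 16 of 16 inputs and Slc51a 0 in 32 of 32 libraries, so neither subunit of the OST pair was detectable in input at this depth. Slc51a shares 567 exon bases with Pcyt1a on the opposite strand, which had 32858 counts over all libraries.

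Transporter transcripts in input did not pass the test between any groups. Of the 7 transporters tested in input, 0 passed an adjusted p of 0.05 in edgeR's quasi-likelihood test (Benjamini-Hochberg over 8769 genes) for KO minus flox after hepatectomy, where 0.0342% of all genes did. The count was also 0 for KO minus flox after sham surgery (0.0114% of all genes), for its mean over both surgeries (0.0798%), for hepatectomy minus sham in KO (0.0228%), in flox (0%) and as the mean over both genotypes (0.0228%), and for the genotype by surgery interaction (0%). The count was also 0 in each of the 7 comparisons when p was left unadjusted, and DESeq2 called 0 in each. The fit does not show equal levels: the log2 difference of KO minus flox after hepatectomy had a 95% interval of -0.996 to 0.77 for Slco1b2, -1.70 to 1.26 for Slc10a1 and -1.55 to 1.64 for Abcb11.

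**Figure D1:**
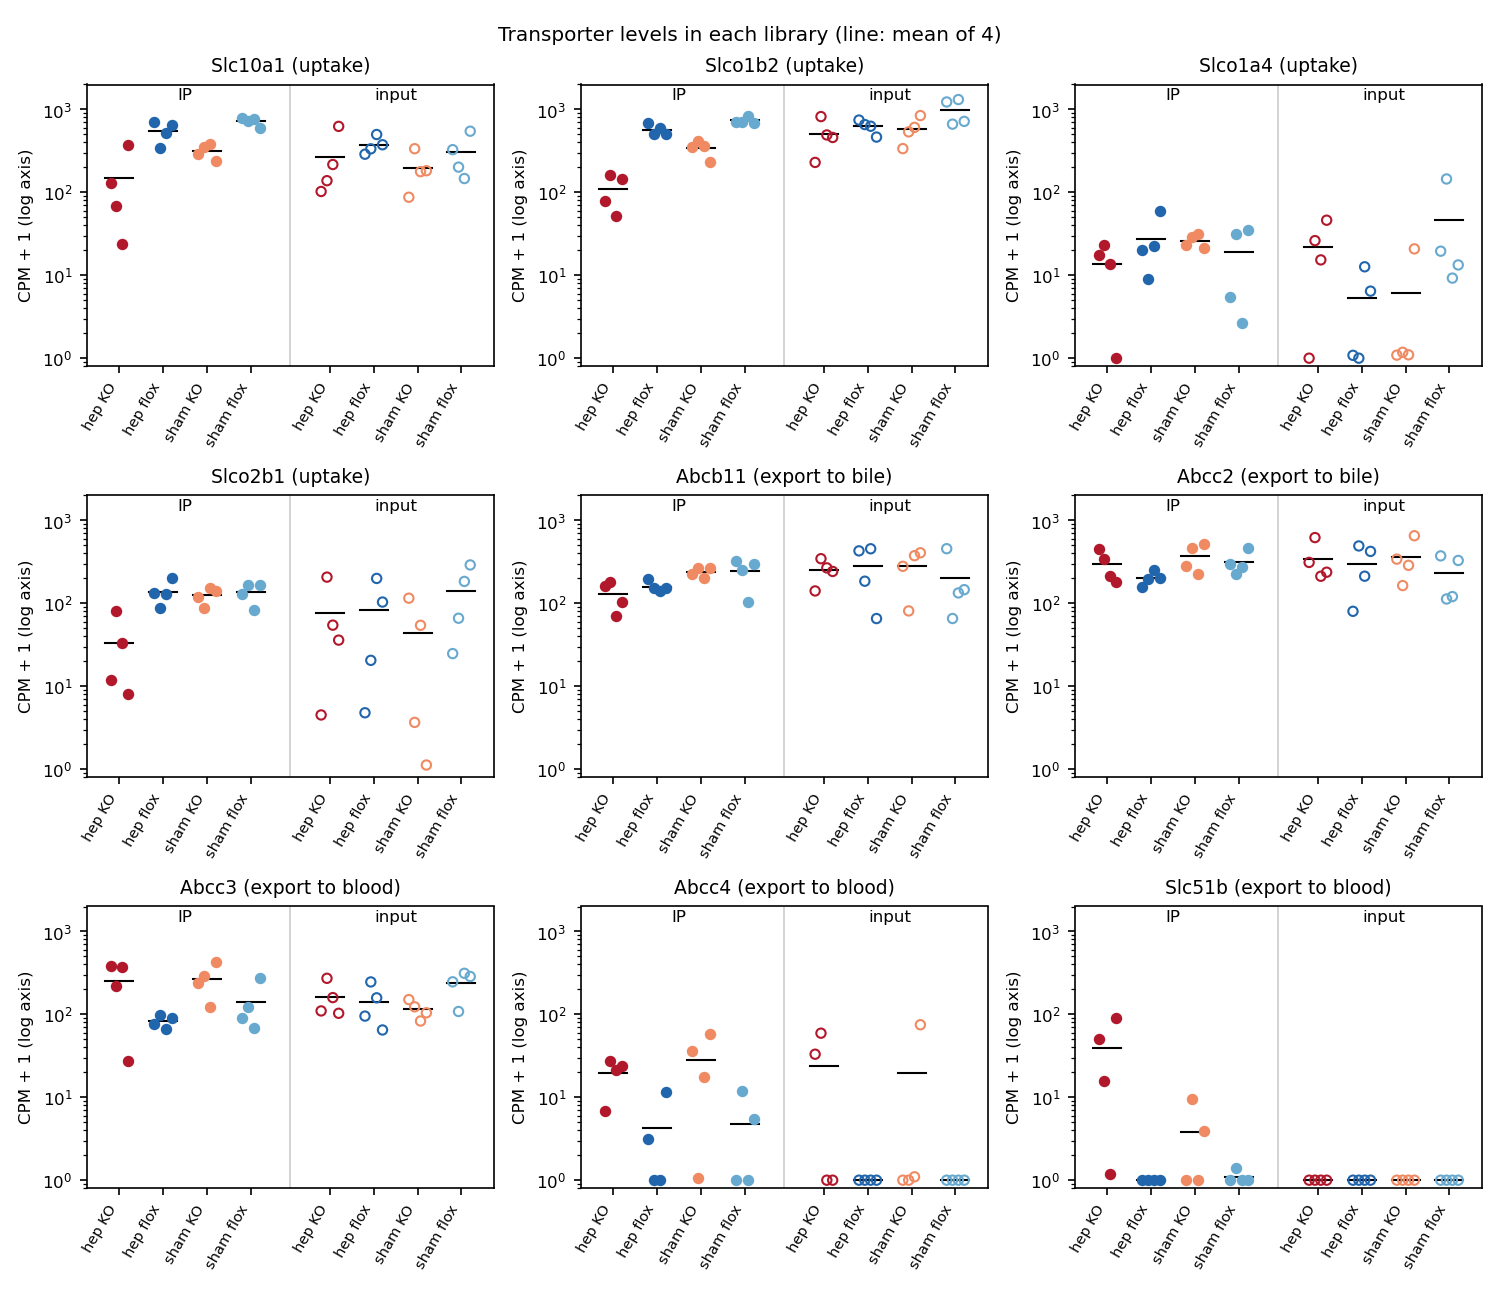
CPM + 1 (log axis) of 9 transporters in each of the 4 groups, filled points for the 16 IP libraries and open points for the 16 inputs, with a line at the mean of 4 libraries; Slc51a, at 0 throughout, is left out. In the IP libraries Slco1b2 lies at 51.2 to 162 CPM after hepatectomy in KO, against 498 to 679.6 CPM in flox, while its inputs overlap.

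The uptake carriers carried the clearest change, in the IP libraries of KO livers after hepatectomy. Slco1b2 averaged 108 ± 52.6 CPM in KO livers after hepatectomy, against 567 ± 86.8 CPM in flox livers, and Slc10a1 and Slco2b1 were lower as well. Slc51b was detected in KO livers and at 0 counts in flox livers after hepatectomy, and neither bile pump passed the test. Each group holds 4 mice, so the p-values measure the spread between animals. In these bulk livers fewer cells of a type and less RNA per cell cannot be told apart. Of the 4 uptake carriers, 3 passed the test as lower in KO, where 1.16% of the 14020 genes tested in IP were called lower, 0.342% higher and 1.5% either way. Slc51b also passed, but it met the filter on low counts only through the KO groups where it is high, so its call is read as no support. Outside the section on processing it is not counted among the transporters that passed, though it remains 1 of the 9 tested. The median log2 change was -2.27 over the 4 uptake carriers and -0.15 over both bile pumps, beside 0.01 over all genes tested.

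Slco1b2, the mouse carrier for unconjugated bile acids and bilirubin, had 77.3, 162, 51.2 and 144 CPM in the IP libraries of hepatectomy KO livers, against 679.6, 498, 591 and 499 CPM in hepatectomy flox livers. After sham surgery it had 351, 413, 362 and 230.3 CPM in KO livers, against 709.7, 709.9, 837 and 694 CPM in flox livers. All 8 KO livers lay below all 8 flox livers, a separation that 0.178% of all genes tested in IP showed in this direction. After hepatectomy alone Slco1b2 and Slco2b1 lay lower without overlap (3.63% of all genes) and Slc51b higher (4.37%), and after sham surgery Slco1b2 and Slc10a1 lay lower (1.19%). The log2 change of KO minus flox was -2.67 ± 0.37 (SE) after hepatectomy (edgeR, adjusted p = 0.00013), -1.21 ± 0.35 after sham surgery (adjusted p = 0.441) and -1.94 ± 0.25 as the mean over both surgeries (adjusted p = 4.79e-05). The call after hepatectomy held under each of the 7 other settings and without each of the 8 hepatectomy animals in turn.

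Slc10a1, the sodium-driven bile acid carrier, had 128, 68.3, 22.9 and 374 CPM in the IP libraries of hepatectomy KO livers, against 706, 338, 523 and 642 CPM in hepatectomy flox livers. Only KO replicate 4, at 374 CPM, reached into the flox range. After sham surgery it had 291, 349, 384 and 241 CPM in KO livers, against 785, 716, 764 and 599.8 CPM in flox livers, with no overlap. The log2 change was -2.17 ± 0.51 after hepatectomy (edgeR, adjusted p = 0.025), -1.28 ± 0.50 after sham surgery (adjusted p = 0.711) and -1.72 ± 0.36 as the mean over both surgeries (adjusted p = 0.00885). The call after hepatectomy was lost without library scaling by TMM (adjusted p = 0.0572) and without KO replicate 1 or 2 or flox replicate 1 or 4 (adjusted p up to 0.0817). Without KO replicate 4, the library at 374 CPM, the change was -3.17 and past the threshold. The call of the mean over both surgeries held in every setting run.

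Slco2b1, a carrier of steroid sulfates and drugs, had 10.8, 80.8, 31.9 and 7.01 CPM in the IP libraries of hepatectomy KO livers, against 134, 88.0, 127 and 199 CPM in hepatectomy flox livers, with no overlap. After sham surgery it had 118, 87.0, 152 and 141 CPM in KO livers, against 130.4, 164, 81.3 and 163 CPM in flox livers, and these overlapped. Its log2 change was -2.36 ± 0.55 after hepatectomy (edgeR, adjusted p = 0.0216) and -0.25 ± 0.52 after sham surgery (adjusted p = 0.9998). The call was lost without TMM (adjusted p = 0.0631) and without KO replicate 1 or 3 or flox replicate 1 or 4 (adjusted p up to 0.0933). Without KO replicate 2, the KO library with the highest value, the change was -3.30 (adjusted p = 0.0017). Slco2b1 shares 471 exon bases with an unnamed gene on the opposite strand, which had 694 counts against its own 43449, and the strand setting of the counting is not given in the sources used here.

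Slco1a4, a sinusoidal carrier known for digoxin uptake, was low and uneven. It had 16.5, 22.0, 12.8 and 0 CPM in the IP libraries of hepatectomy KO livers, against 19.1, 7.92, 21.3 and 58.7 CPM in hepatectomy flox livers. The log2 change was -1.32 ± 1.15 (edgeR, adjusted p = 0.779), and after sham surgery its values overlapped as well.

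The bile pumps did not pass the test. Abcb11 had 160.3, 179.9, 69.4 and 102 CPM in the IP libraries of hepatectomy KO livers, against 195, 151, 138 and 151 CPM in hepatectomy flox livers, and the groups overlapped. Its log2 change of KO minus flox after hepatectomy had a 95% interval of -1.33 to 0.15 (edgeR, adjusted p = 0.608). Abcc2 had 451, 344, 214 and 179 CPM in hepatectomy KO livers, against 158, 194, 254 and 202 CPM in hepatectomy flox livers, and the interval of its log2 change was -0.42 to 1.01 (adjusted p = 0.885). Both intervals span 0.

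Abcc3, the exporter of glucuronides to blood, had 378, 216, 374 and 26.6 CPM in the IP libraries of hepatectomy KO livers, against 75.2, 98.4, 65.3 and 89.6 CPM in hepatectomy flox livers. In KO, 3 libraries lay above all 4 flox libraries and replicate 4, the library with the lowest total, lay below them. The log2 change was 1.33 ± 0.55 (edgeR, adjusted p = 0.254) over all libraries, and 1.71 (adjusted p = 0.0208) without KO replicate 4. After sham surgery Abcc3 had 239, 291, 121 and 425 CPM in KO livers, against 88.8, 122, 67.3 and 275 CPM in flox livers, and the groups overlapped.

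Slc51b, the small subunit of the OST carrier, had 49.6, 14.5, 0.182 and 88.5 CPM in the IP libraries of hepatectomy KO livers, against 0 in 4 of 4 hepatectomy flox livers. The lowest KO value stood for 3 counts and the others for 283 to 851. Summed over the groups, 1768 counts against 0 put the pooled level at least 615-fold higher in KO (floor of 3 counts over the group, counting error only). That bound leaves out the spread between animals, and KO replicate 3 itself lay at the floor of 3 counts. No p is given for this difference, since the gene entered the fit only through the KO groups. After sham surgery Slc51b had 0, 8.46, 0 and 2.88 CPM in KO livers, against 0, 0.394, 0 and 0 CPM in flox livers. Its partner Slc51a had no counts. Slc51b shares 91 exon bases with Rasl12 on the opposite strand, which had 245 counts against its own 1970.

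Abcc4, which exports bile acids together with glutathione, had 5.77, 26.5, 20.3 and 22.6 CPM in the IP libraries of hepatectomy KO livers, against 2.11, 0, 0 and 10.7 CPM in hepatectomy flox livers. After sham surgery it had 35.0, 0.0672, 16.3 and 56.5 CPM in KO livers, against 0, 10.8, 0 and 4.39 CPM in flox livers. The groups overlapped after either surgery, and the log2 change after hepatectomy was 2.27 ± 1.86 (edgeR, adjusted p = 0.749).

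**Figure D2:**
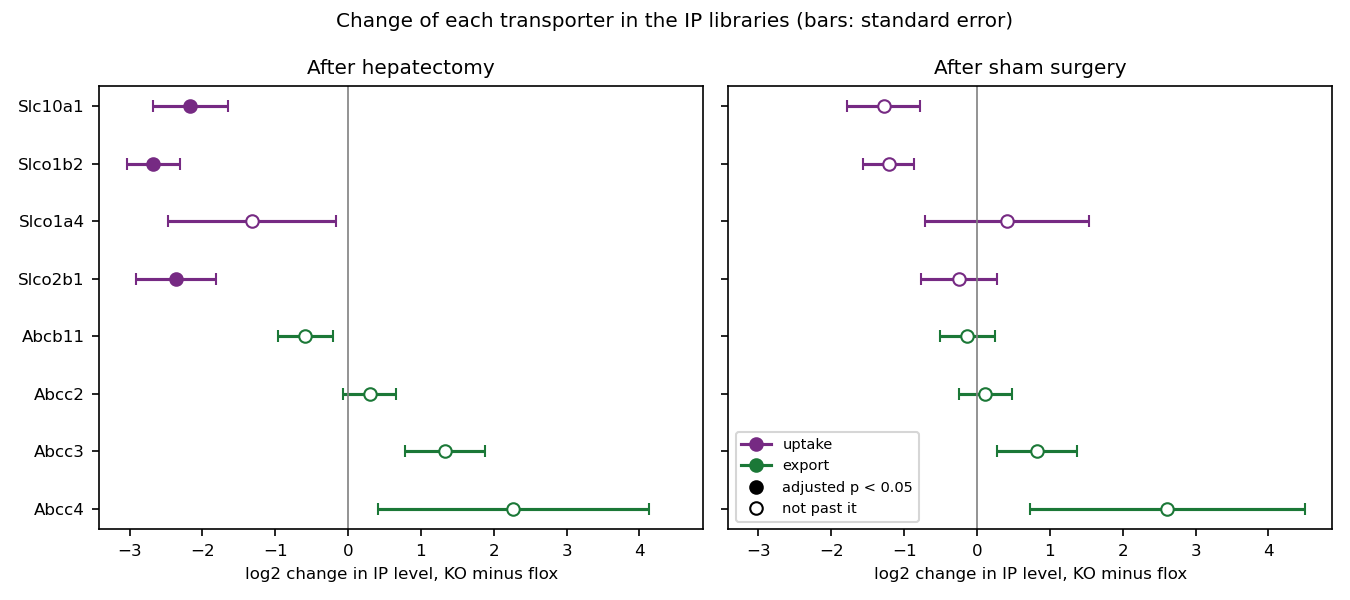
Log2 change in IP level, KO minus flox, of 8 transporters after hepatectomy (left) and after sham surgery (right), with bars for the standard error; filled points are past an adjusted p of 0.05. The uptake carriers lie left of 0 after hepatectomy and Abcc3 and Abcc4 right of it; Slc51b is left out because 7 of its 8 flox libraries are at 0, and Slc51a because it had no counts.

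Marker sums of 6 cell types were set beside these values, and their ranges in IP overlapped between hepatectomy KO and flox for all but the stellate cell list. The sum of 8 hepatocyte markers in IP was 24408 to 73323 CPM in hepatectomy KO livers, against 70286 to 85955 CPM in hepatectomy flox livers. The median sums were 45027 CPM in KO and 72991 CPM in flox. The median log2 change over the 8 was -0.80, and 1 of the 8 (Apoa1) was called lower, against 1.16% of all genes. The sum of 7 stellate cell markers was 420 to 609 CPM in hepatectomy KO, against 204 to 239.6 CPM in hepatectomy flox, and that of 7 Kupffer cell and macrophage markers was 308 to 936 CPM in hepatectomy KO, against 283 to 423 CPM in hepatectomy flox, with 0 of 7 called in each list. The sum of 6 cholangiocyte markers was 74.2 to 279 CPM in hepatectomy KO, against 28.2 to 188 CPM in hepatectomy flox, with Cftr at 0 in hepatectomy KO and 0 of 5 tested called. The 6 sinusoidal endothelial markers summed to 105 to 500.4 CPM in hepatectomy KO, against 154 to 199 CPM in hepatectomy flox, and the 4 lymphoid markers to 12.6 to 294 CPM in hepatectomy KO, against 0 to 43.0 CPM in hepatectomy flox, where Cd79a and Nkg7 were at 0; 0 of either list were called. In input, the hepatocyte sum was 66271 to 82381 CPM in hepatectomy KO, against 76616 to 80978 CPM in hepatectomy flox. Of these 8 markers, 1 was called higher in input, against 0.0342% of all genes. The stellate cell sum in input was 359.8 to 579.8 CPM in hepatectomy KO, against 123.9 to 359.6 CPM in hepatectomy flox, with 0 of 7 called. These ranges did not overlap, by a narrow margin, and those of all other lists did overlap in input. The part of these shifts in the transporter changes was not tested.

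After sham surgery 0 of 9 transporters passed the test between KO and flox in IP, against 0.0927% of all genes (0.0428% higher, 0.0499% lower), with 3 at an unadjusted p under 0.05 (Slco1b2, Slc10a1 and Slc51b, the last filtered in by its KO groups) and 1 called by DESeq2 (Slco1b2). As the mean over both surgeries Slco1b2 and Slc10a1 passed, against 1.42% of all genes (0.456% higher, 0.963% lower). The genotype by surgery interaction was past the threshold for 0 of 9 transporters, against 0.0285% of all genes, with 3 at an unadjusted p under 0.05 (Slco1b2, Slco2b1 and Slc51b) and 0 called by DESeq2. The interaction was -1.46 ± 0.49 for Slco1b2 (edgeR, adjusted p = 0.485) and -2.12 ± 0.74 for Slco2b1 (adjusted p = 0.491) on the log2 scale, so a larger KO change after hepatectomy than after sham surgery was not shown for either.

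The surgeries themselves were compared within each genotype, using the same IP libraries. In KO livers 1 of 9 transporters passed the test, against 0.635% of all genes (0.0499% higher, 0.585% lower): Slco1b2 fell by 1.78 ± 0.35 on the log2 scale after hepatectomy relative to sham (edgeR, adjusted p = 0.0129). That call was lost without hepatectomy KO replicate 1 or 3 or sham KO replicate 2 (adjusted p up to 0.063). Abcb11 in IP had 69.4 to 179.9 CPM in hepatectomy KO livers, against 199 to 269 CPM in sham KO livers, without overlap (as were Slco1b2 and Slco2b1, against 4.34% of all genes), and its change of -0.999 ± 0.38 missed the threshold (adjusted p = 0.336). In flox livers 0 of 9 passed, against 0.0285% of all genes, with 0 at an unadjusted p under 0.05 and 0 called by DESeq2, although Slco1b2 lay lower without overlap there (2.28% of all genes). As the mean over both genotypes 1 passed (Slco1b2, -1.05 ± 0.25, adjusted p = 0.0411), against 0.656% of all genes (0.221% higher, 0.435% lower). This call was lost without 13 of 16 animals in turn, without the 2 sham flox animals aged 77 days (adjusted p = 0.123) and with the replicate number as a block (adjusted p = 0.0562). Hepatectomy and sham comparisons in KO share their hepatectomy KO libraries with the KO and flox comparison above.

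Uptake and export carriers were then set against each other within each library, as the summed CPM per kb of the 6 export genes over that of the 4 uptake genes. In IP the ratio was 2.82, 1.70, 3.82 and 0.867 in hepatectomy KO livers, against 0.144, 0.256, 0.178 and 0.161 in hepatectomy flox livers. After sham surgery it was 0.545, 0.648, 0.320 and 1.10 in KO livers, against 0.216, 0.197, 0.120 and 0.363 in flox livers. The hepatectomy KO livers lay above the hepatectomy flox livers without overlap, and after sham surgery the groups overlapped. Since the members were chosen by role and each sum rests on a few of its genes, the ratio is a description and carries no test.

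Both sums of the ratio differed after hepatectomy, each without overlap, but the export sum did so only with Slc51b included. In hepatectomy KO replicate 4 Slc51b gave 124.8 of 133 CPM per kb of the carriers to blood and of 173.8 of all export carriers. The whole export sum was 68.1 to 70.4 CPM per kb in hepatectomy flox. The uptake sum in IP was 97.0 ± 73.1 CPM per kb in hepatectomy KO, against 393 ± 91.8 in hepatectomy flox. The sum of the carriers to blood was 100.4 ± 40.1 CPM per kb in hepatectomy KO, against 14.9 ± 2.92 in hepatectomy flox, while that of the bile pumps was 59.7 ± 23.4 in hepatectomy KO, against 54.5 ± 2.33 in hepatectomy flox, with overlap. Without Slc51b, whose short transcript weighs heavily per kb, the ratio was 0.245 to 3.81 in hepatectomy KO and 0.144 to 0.256 in hepatectomy flox, and the groups then overlapped. In the inputs the ratio was 0.943, 0.735, 0.499 and 0.238 in hepatectomy KO livers, against 0.387, 0.473, 0.362 and 0.260 in hepatectomy flox livers, with overlap.

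**Figure D3:**
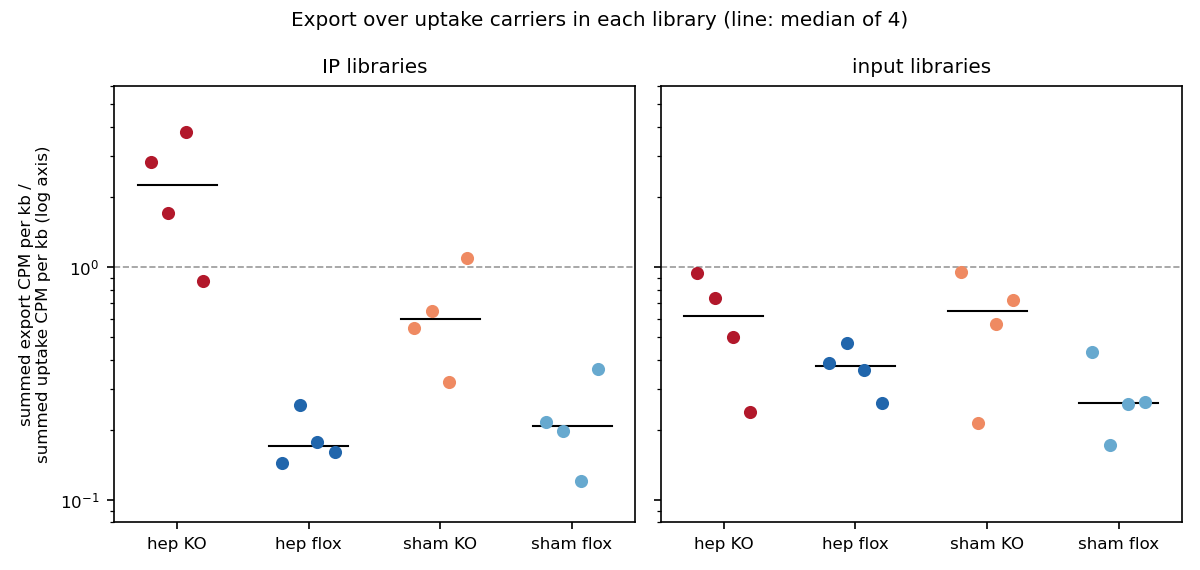
Summed CPM per kb of the 6 export carriers over that of the 4 uptake carriers (log axis) in each IP library (left) and input library (right), with a line at the median of 4. In IP the hepatectomy KO livers lie at 0.867 to 3.82 and the hepatectomy flox livers at 0.144 to 0.256; in input the groups overlap.

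The ratio of IP to input of an animal relates the pulled-down fragments to the transcript level. It was computed as log2 of CPM + 1 in IP over CPM + 1 in input, which draws low genes toward 0. Slco1b2 had -1.55, -2.33, -3.24 and -1.67 in hepatectomy KO livers, against -0.13, -0.40, -0.08 and 0.11 in hepatectomy flox livers, with no overlap, a separation that 3.41% of the 14328 genes tested showed in this direction. After sham surgery it had 0.06, -0.37, -0.75 and -1.87 in KO livers, against -0.79, 0.10, -0.65 and -0.05 in flox livers, with overlap. Slc10a1 averaged -1.14 ± 1.47 in hepatectomy KO livers, against 0.54 ± 0.61 in hepatectomy flox livers (SD, n = 4 each). These groups overlapped, with KO replicate 1 at 0.34 and flox replicates 2 and 3 at 0.02 and 0.07. The fitted difference of Slc10a1 missed the threshold (-2.06 ± 0.88 (SE), edgeR, adjusted p = 0.15). Slco2b1 had -2.17 to 1.38 in hepatectomy KO livers, against -0.64 to 4.81 in hepatectomy flox livers, with overlap. Its fitted difference missed the threshold as well (-2.50 ± 1.70 (SE), edgeR, adjusted p = 0.484). The values of Abcb11, Abcc2 and Abcc3 overlapped between KO and flox after hepatectomy. After sham surgery Abcc3 had 0.67, 1.24, 0.55 and 2.03 in KO livers, against -1.46, 0.18, -2.20 and -0.05 in flox livers, without overlap (1.84% of all genes), though the fitted difference missed the threshold (1.63, edgeR, adjusted p = 0.614).

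**Figure D4:**
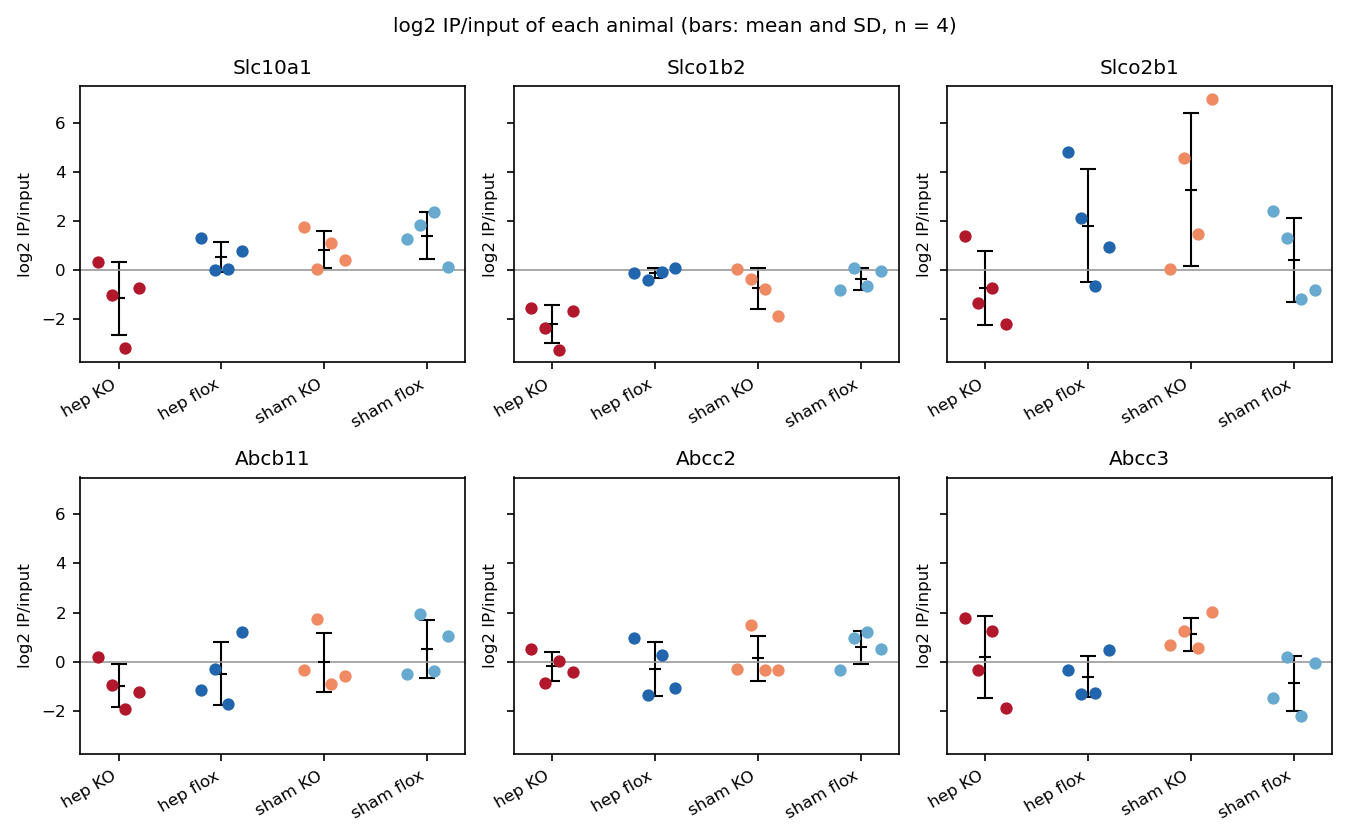
Log2 IP/input of each animal for 6 transporters in the 4 groups, with the mean and SD of 4 animals. Slco1b2 lies at -3.24 to -1.55 in hepatectomy KO livers and at -0.40 to 0.11 in hepatectomy flox livers; the bile pumps overlap between the groups.

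Over all 32 libraries, Slco1b2 was depleted in IP in hepatectomy KO livers, the only call among the 9 transporters tested in that group, where 0.328% of 14328 genes were called at an absolute log2 of at least 1 (0.307% lower, 0.0209% higher). Its fitted log2 IP/input was -2.43 ± 0.48 (edgeR, adjusted p = 0.00242), and the call was lost without hepatectomy KO replicate 3 (-2.12, adjusted p = 0.112). Of the 8 hepatocyte markers, 2 were also called lower in that group (0.307% of all genes), with a median log2 of -0.86 over the 8. In hepatectomy flox livers 0 of 9 were called (1.21% of all genes), in sham KO livers 0 of 9 (0.0209%) and in sham flox livers 0 of 9 (0.258%, with 0.23% higher), with 1, 1 and 2 transporters at an unadjusted p under 0.05 and 1, 0 and 1 called by DESeq2. The former were Abcc4 in hepatectomy flox, Slc51b in sham KO, and Abcc4 and Slc10a1 in sham flox, and both DESeq2 calls were Abcc4. Abcc4 had 0 counts in every flox input and Slc51b in every input, so their ratios rest on an empty denominator and are read as no support. The test of the difference between KO and flox after hepatectomy called Slco1b2 alone of the transporters, against 0.712% of all genes (0.705% lower). It also called 2 of the 8 hepatocyte markers lower, with a median of -0.80 over the 8. Slc51b could not be called in that test, since with 0 counts in every input its SE was 27184. The difference of Slco1b2 is given next. The difference was -2.66 ± 0.65 (edgeR, adjusted p = 0.032), beside a median of -0.99 over all genes tested, so it was -1.67 relative to that median. With the animal as a block, which pairs the input and IP library of each liver, it was -2.64 ± 0.81 and no longer past the threshold (adjusted p = 0.162). The call was also lost without each of the 8 hepatectomy animals in turn, without the 2 sham flox animals aged 77 days (adjusted p = 0.062), with other library scaling (adjusted p up to 0.193) and with no filter on low counts (adjusted p = 0.103).

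As the mean over both surgeries, the IP/input difference of KO minus flox called Slco1b2 alone of 9, against 4.11% of all genes (3.91% lower), at -1.69 ± 0.46 (edgeR, adjusted p = 0.0258), beside an all-gene median of -0.74. With the animal as a block it was -1.71 ± 0.57 (edgeR, adjusted p = 0.244), and of the 7 other settings DESeq2 alone kept the call. Of the 8 hepatocyte markers, 3 were called lower in the report's fit of this mean (3.91% of all genes), with a median of -0.66. Whether Slco1b2 differed from these markers was not tested. The other IP/input comparisons called 0 of 9: KO minus flox after sham surgery (0.0209% of all genes), hepatectomy minus sham in KO (0.0349%), in flox (0.181%) and as the mean over both genotypes (0.53%), and the interaction (0.0419%). At an unadjusted p under 0.05 these had 1, 1, 0, 0 and 1 transporters, and DESeq2 called 1, 0, 0, 0 and 0. After sham surgery both the DESeq2 call and the transporter at an unadjusted p under 0.05 were Abcc4, which had 0 counts in every sham flox input.

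The sensors and regulators of bile acid transport were read from the same fit of KO minus flox after hepatectomy in IP. In that fit 1.16% of all genes fell and 0.342% rose, with a median log2 change of 0.01, and the counts below are to be read against these shares. Of 8 tested bile acid sensing genes, 1 fell: Rxra, the shared partner of the bile acid receptor and related receptors, averaged 477 ± 136 CPM in hepatectomy KO, against 876 ± 149 CPM in hepatectomy flox (log2 change -1.15 ± 0.29, edgeR, adjusted p = 0.0404). The bile acid receptor Nr1h4 averaged 47.2 ± 33.4 CPM in hepatectomy KO, against 88.0 ± 32.1 CPM in hepatectomy flox (adjusted p = 0.296). Of 8 tested hepatocyte regulators, 3 fell (1.16% of all genes): Cebpa by 2.14, Foxa1 by 2.69 and Hnf4a by 1.29 on the log2 scale (adjusted p = 0.00585, 0.0246 and 0.0141). Hnf4a, a nuclear receptor that maintains hepatocyte genes, averaged 528 ± 154 CPM in hepatectomy KO, against 1073 ± 151 CPM in hepatectomy flox. Nfe2l2, the stress factor NRF2, averaged 429 ± 195 CPM in hepatectomy KO, against 180 ± 20.98 CPM in hepatectomy flox, and missed the threshold (log2 change 0.98 ± 0.35, adjusted p = 0.197).

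Of 12 bile acid synthesis genes tested in the same comparison, 4 fell and 0 rose (1.16% and 0.342% of all genes), with a median log2 change of -1.32, beside 0.01 over all genes. Cyp8b1, the sterol 12-hydroxylase that sets the cholic acid share, had 0.950 ± 1.86 CPM in IP libraries of hepatectomy KO livers, against 263 ± 53.6 CPM in hepatectomy flox livers (log2 change -8.31 ± 1.05, edgeR, adjusted p = 6.89e-05). Cyp7b1, the oxysterol 7-hydroxylase of the alternative pathway, had 4.69 ± 6.66 CPM in hepatectomy KO, against 134 ± 101 CPM in hepatectomy flox (-5.11 ± 1.05, adjusted p = 0.0094). Slc27a2, an acyl-CoA synthetase and fatty acid transporter, and Baat, which conjugates bile acids with glycine or taurine, fell by 2.23 and 1.82 (adjusted p = 0.000485 and 0.0479).

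Other carriers of the sinusoidal and canalicular membranes were read in the same way. Of 6 other sinusoidal uptake carriers tested, 1 fell (1.16% of all genes) and the median log2 change was -2.11: Slco1a1, an organic anion carrier of male mouse liver, had 6.09 ± 12.1 CPM in IP libraries of hepatectomy KO livers, against 185 ± 28.3 CPM in hepatectomy flox livers (-5.25 ± 1.36, edgeR, adjusted p = 0.0473). Of 7 other canalicular pumps tested, 0 passed (1.5% of all genes), with a median of -0.42. Abcb4, the phospholipid flippase of bile, averaged 253 ± 99.2 CPM in hepatectomy KO, against 126 ± 43.4 CPM in hepatectomy flox (adjusted p = 0.441), and Abcg8, a subunit of the sterol pump, 28.2 ± 19.9 CPM in hepatectomy KO, against 64.1 ± 50.5 CPM in hepatectomy flox (adjusted p = 0.525). In the inputs 0 genes of these 5 lists passed between KO and flox after hepatectomy, and after sham surgery 0 passed in IP.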

How the data were processed

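Liver RNA of 16 mice was measured as an input and an IP library each. The authors deposited 1 table of expected counts per gene (32 columns, each mapped to 1 library by its labels; 1.326% to 8.224% of all values in a library were not whole). STAR and fastp are named in the submitters' processing notes; no version, genome build, counting tool or strand setting is stated there. Gene IDs were named by matching their spans to RefSeq GRCm38.p6, which named 33053 of 55421 genes, holding 90.91% of counts; all 10 transporters matched. The members and gene lists were chosen with earlier results of these data known.

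Counts were rounded and fitted with edgeR 4.0.16 (R 4.3.3) by quasi-likelihood, TMM factors, filterByExpr with a minimum count of 10 and 1 coefficient per group, separately for 16 inputs, 16 IPs and all 32 libraries. P-values were adjusted by Benjamini-Hochberg over all genes tested, with a threshold of 0.05, and for IP over input also an absolute log2 of 1. The code was tested on simulated counts. Outside the set, at most 4 genes per list were named, by smallest p, plus any past the threshold. Alternatives were other scaling, DESeq2 1.42.0, other filters, left-out animals and blocks. The labels tie the input and IP library of an animal together; over 397 genes their deviations from the group means had correlations of -0.188 to 0.223 (median 0.0327).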

Additional observations from a re-analysis of the deposited data

Results flagged for a closer look

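In 5 of 65 groups of 4 libraries, 1 library stood apart from the other 3 by Dixon's 95% criterion, which normally distributed values meet by chance in about 1 group in 20. These were Slco1b2 in the IP library of sham flox replicate 3 at 836.6 CPM, Slco1a4 in the IP library of hepatectomy KO replicate 4 at 0 CPM, Slco1a4 in the input of sham KO replicate 4 at 19.81 CPM, Abcc4 in the input of sham KO replicate 4 at 73.98 CPM and Slc51b in the IP library of sham flox replicate 2 at 0.3937 CPM. In both input groups and the Slc51b group the other libraries lay at 0 to 0.178 CPM, so the stated rate does not apply to them.

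The IP/input ratio of Slco1b2 differed between KO and flox in the fit of all 32 libraries, by -2.661 on the log2 scale after hepatectomy and by -1.689 as the mean over both surgeries (edgeR, adjusted p = 0.032 and 0.0258). Neither passed with the animal as a block (adjusted p = 0.162 and 0.244). The difference was lower in KO in 4 of 4 hepatectomy livers, each below all 4 hepatectomy flox livers, a separation that 3.41% of all genes tested showed in this direction.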

How the results depend on the processing

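No call of a transporter changed direction. The median log2 change of all genes in IP, KO minus flox after hepatectomy, did: it was 0.01 in the report's fit, -0.06 with the replicate block and 0.28 without TMM factors. The counts of transporters here include Slc51b where it passed. In IP, KO minus flox after hepatectomy called 2 transporters without TMM factors, beside 4, and 1 to 4 when 1 animal was left out. The mean over both surgeries called 5 with no filter on low counts, beside 3, and 2 to 5 with 1 animal left out. KO minus flox after sham surgery called 1 under DESeq2, beside 0. Hepatectomy minus sham in KO called 2 under DESeq2, with no filter and with a mean of at least 50 CPM, beside 1, and 0 to 2 with 1 animal left out; its mean over both genotypes called 0 without the 2 animals aged 77 days and with the replicate block, and 0 to 2 with 1 animal left out. The IP/input change of KO minus flox after hepatectomy called 0 without TMM factors, with upper-quartile factors, with no filter, without the 77-day animals and with the replicate block, 2 under DESeq2, and 0 to 0 with 1 animal left out. Its mean over both surgeries called 0 under those 5 settings and with a mean of at least 50 CPM, 3 under DESeq2, and 0 to 1 with 1 animal left out. DESeq2 called 1 for the IP/input change after sham surgery, 2 for IP over input in hepatectomy KO, 1 in hepatectomy flox and 1 in sham flox. IP over input in hepatectomy KO called 0 to 1 with 1 animal left out. Apart from Abcc3, the transporters that DESeq2 added to the IP/input fits were Abcc4 and Slc51b, whose flox inputs held 0 counts. The export sum in IP of hepatectomy flox was 76.0 CPM per kb with TMM scaling. The cause of these changes was not tested.

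Over all genes, calls of KO minus flox after hepatectomy ranged over settings from 116 to 809 in IP (210 in the report's fit), from 9 to 3203 for IP/input (102) and from 1 to 1052 in input (3). In IP they were 7 to 186 after sham surgery (13), 122 to 824 as the mean over both surgeries (199), 35 to 414 for hepatectomy minus sham in KO (89) and 34 to 513 as its mean over both genotypes (92), and for the IP/input mean over both surgeries 15 to 3407 (589), with DESeq2 giving the highest count in each. The median IP/input change of KO minus flox after hepatectomy over all genes tested was -2.12 to -0.12 over settings. The ends came from the animal block and from the filter of a mean of at least 50 CPM. With other scaling it was -0.46 (no TMM factors) and -0.14 (upper-quartile factors). The size of a change relative to other genes therefore depends on scaling, filter and block. Replicate numbers across genotypes are only shared numbers: the correlation of same-numbered IP libraries was -0.0341 to 0.46 over 8 pairs, and 3 of 8 matched their own number best. With that number as a block, KO minus flox after hepatectomy in IP called 4 transporters, and Slco1b2 stayed past the threshold (-2.70, edgeR, adjusted p = 0.00024). The spread between animals was larger in input than in IP for Slco1b2 (mean coefficient of variation within groups 34.5% in input and 23.9% in IP) and Slc10a1 (56.2% and 41.6%).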

Other observations

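Across the 16 inputs, the genes whose log2(CPM + 1) was most like that of Slco1b2, the uptake carrier with the highest mean, were Etnk2 (Pearson's r 0.756), Mup11 (0.744), Osbpl9 (0.709), Prpf8 (0.701) and B2m (0.696), among 2583 genes with a mean of at least 50 CPM, whose median r was -0.00255. For Abcc2, the export pump with the highest mean, they were Srp9 (0.852), Degs1 (0.771), Spata2l (0.771), C1rl (0.749) and Purb (0.743), with a median of 0.053 over all genes. The points share library depth and surgery and genotype groups, and the values are a description.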
